A study of Mus musculus with 30 samples.

Results

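Igf2bp1, Igf2bp2, Igf2bp3, Lin28a, Lin28b, Hmga1 and Hmga2 are described here across all libraries of a mouse study of cardiac fibroblasts. These 7 genes were chosen by name as the oncofetal RNA-binding proteins and their Hmga partners, out of 49492 to 56691 genes listed in each of 4 bulk RNA-seq count tables and 32285 genes in each of 2 single-cell matrices. All cells were primary wild-type cardiac fibroblasts from mouse hearts, and the study asked why fibroblasts of adult and aged mice are converted to induced cardiomyocyte-like cells less well than neonatal ones. Each of the 14 bulk groups held 2 libraries. Untreated fibroblasts cultured for 3 days came from neonatal (P1-P3), 3-, 12- and 24-month-old mice. Day-3 cells given LacZ, the control, or MGT, the reprogramming factors Mef2c, Gata4 and Tbx5, came from neonatal, 3- and 18-month-old mice. Neonatal fibroblasts at day 10 carried OE-Ctrl or OE-Nr4a3, an overexpression of the nuclear receptor Nr4a3, without a label that names MGT. Fibroblasts of 3-month-old mice at day 7 carried MGT with shNT, the control hairpin, or with shNr4a3, so both arms of the knockdown had MGT. The 2 single-cell libraries held MGT cells of neonatal and 24-month-old mice, 1 library each, with no day in the labels. The vectors, their promoters and whether animals were pooled are not given in the sources used here.

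The 7 genes are known for high expression in the embryo and in tumours, and most of them for loss after birth. Lin28a and Lin28b bind precursors of the let-7 microRNAs and block their maturation; let-7 is low in early embryos and high in adult tissue, and it represses transcripts that carry its seed match in the 3′ untranslated region (UTR). Igf2bp1, Igf2bp2 and Igf2bp3 are cytoplasmic proteins that bind mRNAs such as Igf2 and control their stability, transport and translation, in part through N6-methyladenosine. Hmga1 and Hmga2 are small chromatin proteins that bind the minor groove of AT-rich DNA, and Hmga2 is a textbook let-7 target.

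The let-7 seed is shown first because it is what the sequences of the 7 genes share. The mature mouse let-7 microRNAs below are from RefSeq (build GRCm38.p6), with bases 2 to 8, the seed, in capitals. All 9 distinct mature names of the family in that table, let-7a, b, c, d, e, f, g and i and miR-98, held the same seed, and 4 of them are printed to show where they differ outside it.
let-7a-5p: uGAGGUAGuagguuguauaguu
let-7d-5p: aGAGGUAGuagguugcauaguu
let-7g-5p: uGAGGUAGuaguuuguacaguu
miR-98-5p: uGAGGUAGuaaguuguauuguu

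The complement of that seed, CTACCTC, was searched on the sense strand of the longest annotated 3′ UTR of every protein-coding gene, and every one of the 7 genes held it at least once. Igf2bp1, Lin28b and Hmga2 had 4 matches each, Lin28a had 2, and Igf2bp2, Igf2bp3 and Hmga1 had 1 each. Among all 21037 protein-coding genes with an annotated 3′ UTR, 9.02% held at least 1 match, 1.07% at least 2 and 0.152% at least 3. UTR length differs between genes: of the UTRs at least as long as that of Hmga2 (3014 bases) 25.3% held a match, and of those at least as long as that of Igf2bp1 (6337 bases) 45.7% did. For each gene the most upstream match is printed within 23 bases, with the match in capitals and the sense strand read 5′ to 3′ (GENCODE M21 on GRCm38).
Hmga2, chr10:120364224-120364246, minus strand: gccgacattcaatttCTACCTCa
Hmga1, chr17:27563277-27563299, plus strand: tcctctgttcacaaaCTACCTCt
Igf2bp1, chr11:95961778-95961800, minus strand: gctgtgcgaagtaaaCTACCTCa
Igf2bp2, chr16:22059473-22059495, minus strand: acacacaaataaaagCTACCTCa
Igf2bp3, chr6:49086787-49086809, minus strand: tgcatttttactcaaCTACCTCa
Lin28a, chr4:134005189-134005211, minus strand: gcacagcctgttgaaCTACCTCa
Lin28b, chr10:45381022-45381044, minus strand: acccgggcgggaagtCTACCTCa
In 6 of these 7 windows the base after the match is A, and in the Hmga1 window it is not. Among the matches not printed, those of Hmga2 and Lin28b lack the A, that of Lin28a has it, and those of Igf2bp1 are mixed. A match is a description of these letters and not a measured site, and mature microRNAs were not measured in these libraries.

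The bulk libraries held 17283764 to 22311330 counts in the untreated fibroblasts, 14489836 to 18796708 in the LacZ and MGT cells, 14275501 to 18441428 in the overexpression and 39746879 to 43448379 in the knockdown. Levels are given as CPM, the counts of a gene scaled to the total of its library after TMM normalisation, differences as log2 fold changes ± SE of edgeR's quasi-likelihood test with Benjamini-Hochberg adjusted p over all tested genes, and a difference is called at an adjusted p below 0.05. Of the 7 genes, 5 passed the filter on low counts in every table, and Lin28a and Lin28b passed it in none. All 8 fibroblast markers were detected in every bulk library. Nothing in the labels says that the 2 libraries of a group came from separate animals, so p-values measure the spread between these libraries, which may be technical. Xist, the RNA of the inactive X chromosome, read 1277 and 1288 CPM in the untreated neonatal and 775 and 832.8 CPM in the 24-month libraries, and below 0.5 CPM at 3 and 12 months, so the sex of the animals is not the same at every age. In LacZ and MGT libraries Xist read 439.8 to 547.9 CPM in neonatal cells and below 0.6 CPM at 3 and 18 months, so the age comparisons there differ in Xist as well.

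Untreated neonatal fibroblasts expressed the 3 Igf2bp genes and both Hmga genes well above the adult ones. All 5 tested genes were lower at 3, 12 and 24 months than in neonatal cells, with median log2 fold changes of −4.53, −3.92 and −4.71, against medians of 0.01, 0.03 and −0.01 over all tested genes. In the same 3 comparisons 52.5%, 55.2% and 54.5% of the 16466 tested genes were called. Of all tested genes 28%, 29.7% and 27.9% were called higher and 24.4%, 25.5% and 26.6% lower. With Lin28b set at its bound the medians are −3.59, −3.19 and −3.67. The 3 comparisons share the neonatal libraries, so they are not independent of each other.

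Igf2bp1 (ENSMUSG00000013415, chr11:95957163-96005940) read 44.65 and 47.41 CPM in the neonatal libraries and 1.394 and 1.869 CPM at 3 months. It read 0.8022 and 0.8458 CPM at 12 months and 0.8444 and 0.9028 CPM at 24 months. Neonatal and adult libraries did not overlap, and neither did the 3-month libraries with the older ones. Against neonatal cells Igf2bp1 was 28.2-fold lower at 3 months (−4.82 ± 0.142, adjusted p 4.1e-24) and 52.3-fold lower at 24 months (−5.71 ± 0.159, adjusted p 7.46e-25).

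Igf2bp3 (ENSMUSG00000029814, chr6:49085223-49214957), the family member best known as a cancer-associated antigen, had the same shape. Its libraries read 45.55 and 49.06 CPM in neonatal cells, 1.889 and 2.204 at 3 months, 1.261 and 0.6966 at 12 months and 0.8913 and 1.235 at 24 months. All adult libraries were far under the neonatal ones, and the 12- and 24-month libraries overlapped. Igf2bp3 was 23.1-fold lower at 3 months (−4.53 ± 0.143, adjusted p 2.72e-23) and 44.2-fold lower at 24 months (−5.47 ± 0.161, adjusted p 3.61e-24). Igf2bp3 overlaps Malsu1 on the other strand, and whether counting used strand is not stated. The same limit holds for Igf2bp1, which overlaps the antisense gene Gm29202, and for Hmga1, which overlaps AI413582 and the antisense gene Gm49774.

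Igf2bp2 (ENSMUSG00000033581, chr16:22059009-22163299), the member that stays on in many adult tissues, was lower with a smaller fold. It read 105.8 and 106.2 CPM in neonatal cells, 58.59 and 58.46 at 3 months, 32.03 and 30.15 at 12 months and 30.21 and 29.89 at 24 months. The order neonatal, 3 months and then both older groups had no overlap, while 12 and 24 months differed by −0.05 ± 0.069 (adjusted p 0.709). Igf2bp2 was 1.81-fold lower at 3 months (−0.86 ± 0.055, adjusted p 6.22e-15) and 3.53-fold lower at 24 months (−1.82 ± 0.060, adjusted p 7.96e-23). Per kilobase of the exons, Igf2bp2 had a mean of 14.3 CPM per kb in neonatal cells, Igf2bp3 5.80 and Igf2bp1 4.75; at 24 months the means were 4.06 for Igf2bp2, 0.130 for Igf2bp3 and 0.0902 for Igf2bp1.

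Hmga2 (ENSMUSG00000056758, chr10:120361275-120476469) read 165.1 and 169.5 CPM in neonatal cells. It read 7.15 and 5.655 CPM at 3 months, 9.282 and 12.69 at 12 months and 6.802 and 5.939 at 24 months. The adult libraries lay between 5.655 and 12.69 CPM, with both 12-month libraries above all 3- and 24-month ones. Hmga2 was 26.0-fold lower at 3 months (−4.70 ± 0.094, adjusted p 1.04e-26), 15.1-fold lower at 12 months (−3.92 ± 0.088) and 26.2-fold lower at 24 months (−4.71 ± 0.094, adjusted p 8.51e-27). The rise from 3 to 12 months was called (0.79 ± 0.134, adjusted p 3.37e-05), and so was the fall from 12 to 24 months (−0.80 ± 0.135, adjusted p 5.11e-05). Hmga2 has annotated antisense transcripts and a pseudogene, Hmga2-ps1, that could take reads: Hmga2-ps1 was lower at 3 months (−2.23 ± 0.309) and differed from neonatal cells by −0.11 ± 0.243 (adjusted p 0.73) at 12 months. It read 3.236 and 3.581 CPM in neonatal cells and 0.7644 and 0.6709 at 3 months. The older libraries read 2.349 and 3.881 CPM at 12 months and 1.173 and 1.33 at 24 months. Hmga2-ps1 thus also rose to 12 months and fell to 24, and its part in the Hmga2 values was not tested.

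Hmga1 (ENSMUSG00000046711, chr17:27556497-27563674) did not keep a steady order with age. It read 92.17 and 98.57 CPM in neonatal cells, 25.99 and 27.22 at 3 months, 49.16 and 56.67 at 12 months and 22.8 and 22.43 at 24 months. The 12-month libraries sat between the neonatal and the other adult libraries. Hmga1 was 3.58-fold lower at 3 months (−1.84 ± 0.069), 1.797-fold lower at 12 months (−0.85 ± 0.065) and 4.21-fold lower at 24 months (−2.07 ± 0.071, adjusted p 2.35e-22). Between adult ages it was higher at 12 than at 3 months (1.00 ± 0.073, adjusted p 1.35e-12) and lower at 24 than at 12 months (−1.23 ± 0.075, adjusted p 3.8e-14).

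Among adult ages the Igf2bp genes went on falling from 3 months. At 12 against 3 months 3 of the 5 tested genes were lower, Igf2bp1 by −0.97 ± 0.297 (adjusted p 0.0127), Igf2bp2 by −0.91 ± 0.063 (adjusted p 3.21e-13) and Igf2bp3 by −1.08 ± 0.288 (adjusted p 0.00414), and the other 2, both Hmga genes, were higher; 28.5% of all tested genes were called, 13% higher and 15.5% lower. At 24 against 3 months 4 of 5 were lower, where 18.3% of all tested genes were called, 8.85% higher and 9.47% lower: the Igf2bp genes by −0.89 to −0.96 and Hmga1 by −0.23 ± 0.081 (adjusted p 0.0395), while Hmga2 differed by −0.01 ± 0.147 (adjusted p 0.978). At 24 against 12 months 2 of 5, Hmga1 and Hmga2, were lower, where 18.9% were called, 10.8% higher and 8.07% lower. With 1 of the 8 libraries left out, Igf2bp1 at 24 against 3 months ranged from −1.09 to −0.67 and lost its call without 24-month replicate 1 or 2 or 3-month replicate 2. Igf2bp3 ranged from −1.19 to −0.72 and lost it without 24-month replicate 1 or 3-month replicate 2. Hmga1 ranged from −0.27 to −0.20 and lost it without either 24-month replicate or either 3-month replicate. At 12 against 3 months Igf2bp1 lost its call without 12-month replicate 1 or 2 or 3-month replicate 2, and Igf2bp3 without 12-month replicate 2.

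**Figure D1:**
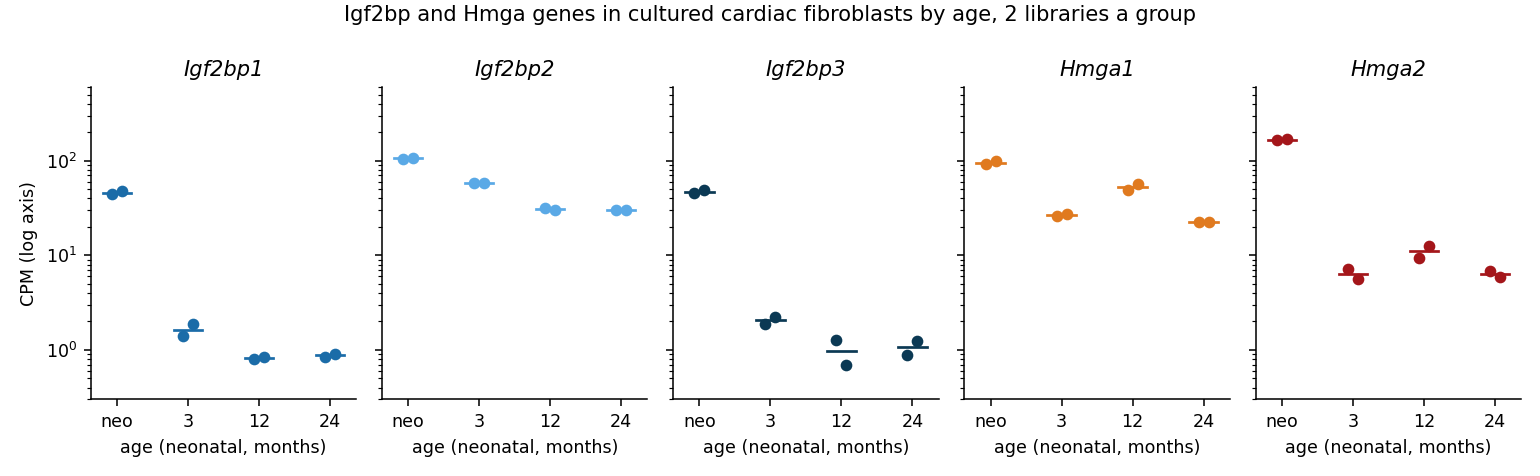
CPM on a log axis of the 5 tested genes in untreated cultured cardiac fibroblasts by age; each point is 1 library and each bar the mean of 2. Igf2bp1, Igf2bp3 and Hmga2 drop from 44.65 CPM or more in neonatal cells to 12.69 CPM or less in every adult library, and Hmga1 is higher at 12 months than at 3 and 24.

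Lin28b (ENSMUSG00000063804, chr10:45376620-45486395) had few counts, all of them in cells from neonatal mice: 1 in an OE-Nr4a3 library and the others in the 2 age series. The untreated neonatal libraries held 7 and 10 counts, the neonatal LacZ libraries 7 and 8, and the neonatal MGT libraries 13 and 3. Every 3-, 12-, 18- and 24-month library held 0. With the 3 counts over the group that a count of 0 allows, Lin28b was at least 6.28-fold lower at 3 months, at least 5.47-fold lower at 12 months and at least 6.17-fold lower at 24 months in untreated cells. In LacZ cells the bounds were at least 4.58-fold lower at 3 and 4.59-fold lower at 18 months, and in MGT cells 4.76-fold and 4.97-fold. These bounds allow for the counting error of the 0 only. The neonatal totals of 15 to 17 counts were taken as exact, so the folds could be smaller. Lin28a (ENSMUSG00000050966, chr4:134003330-134018841) had 0 counts in all 28 bulk libraries, including the neonatal ones.

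Other cell types moved with age in the same libraries. The summed CPM of the 12 cardiomyocyte markers was 1110 to 1199 in untreated neonatal libraries and 20.7 to 50.5 in the adult ones, and the 8 endothelial markers summed to 1215 to 1232 against 140.2 to 272.3. The 8 epicardial markers summed to 163.8 to 166.8 against 1.29 to 6.34, and the 8 pericyte and smooth muscle markers to 544.9 to 566.2 against 104.8 to 182.1. None of those markers was at 0 in the neonatal libraries; in adult libraries 1 or 2 cardiomyocyte and 1 to 3 epicardial markers were. In bulk RNA fewer cells of a type and less RNA per cell cannot be told apart, and the part of these markers in the age differences was not tested in bulk.

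The same genes were measured at day 3 of LacZ or MGT in a separate table, whose levels can only be set beside those of the untreated cells. In LacZ cells Igf2bp1, Igf2bp2, Igf2bp3 and Hmga2 were lower at 3 months than in neonatal cells, 4 of 5 tested genes, with 30.9% of the 16368 tested genes called, 15.1% higher and 15.8% lower. At 18 months the same 4 genes were lower and Hmga1 was higher, with 35% called, 16.7% higher and 18.3% lower. In MGT cells the same 4 genes were lower at both ages, and Hmga1 was higher at 18 months, with 26.1% of all tested genes called at 3 months (12.5% higher and 13.5% lower) and 30.6% at 18 months (14.4% higher and 16.2% lower). The median log2 fold changes over the 5 genes were −0.74 and −1.6 in LacZ and −0.71 and −1.8 in MGT cells, or −1, −1.75, −0.98 and −1.86 with Lin28b at its bound.

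Igf2bp1 in LacZ cells read 46.38 and 45.62 CPM in neonatal libraries, 14.33 and 10.56 at 3 months and 14.14 and 10.26 at 18 months. Neonatal libraries stood apart, and those of 3 and 18 months overlapped. The difference from neonatal cells was −1.89 ± 0.144 at 3 months (3.71-fold lower, adjusted p 8.87e-11) and −1.91 ± 0.144 at 18 months. Igf2bp3 read 45.24 and 45.2 CPM in neonatal, 21.36 and 16.41 in 3-month and 11.94 and 12.44 in 18-month LacZ cells. Those 3 groups did not overlap; Igf2bp3 was lower by −1.26 ± 0.121 at 3 months and by −1.89 ± 0.127 at 18 months, and lower at 18 than at 3 months (−0.63 ± 0.134, adjusted p 0.000937).

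Igf2bp2 read 139 and 128.7 CPM in neonatal, 101.2 and 79.45 in 3-month and 44.61 and 43.41 in 18-month LacZ cells, again without overlap. Its difference from neonatal cells was −0.57 ± 0.099 at 3 months (adjusted p 5.73e-05) and −1.60 ± 0.103 at 18 months (adjusted p 1.93e-12). Hmga2 read 273 and 302.8 CPM in neonatal, 178.5 and 167.1 in 3-month and 249.9 and 207.4 in 18-month LacZ cells. The 18-month libraries lay between the other groups: Hmga2 was lower than in neonatal cells at 3 months (−0.74 ± 0.092, adjusted p 4.5e-07) and at 18 months (−0.33 ± 0.091, adjusted p 0.00552), and higher at 18 than at 3 months (0.40 ± 0.092, adjusted p 0.00181). Without LacZ 18-month replicate 2 the neonatal difference was −0.20 (adjusted p 0.187), and without neonatal LacZ replicate 2 it was −0.25 (adjusted p 0.129). Without LacZ 18-month replicate 1 the difference from 3 months was 0.28 (adjusted p 0.101).

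Hmga1 went the other way in these cells. It read 109.1 and 114.4 CPM in neonatal, 99.58 and 112.1 in 3-month and 179.2 and 145.3 in 18-month LacZ cells. Neonatal and 3-month libraries overlapped (−0.08 ± 0.100, adjusted p 0.603), and Hmga1 was higher at 18 months than in neonatal cells (0.54 ± 0.099, adjusted p 0.000107) and than at 3 months (0.62 ± 0.100, adjusted p 3.91e-05). In MGT cells it was higher at 18 months than in neonatal cells by 0.43 ± 0.099 (adjusted p 0.00151), and by 0.32 (adjusted p 0.056) without MGT 18-month replicate 2.

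Between 18 and 3 months of LacZ cells 4 of 5 tested genes were called, where 23% of all tested genes were (10.8% higher and 12.2% lower): Igf2bp2 (−1.04 ± 0.103) and Igf2bp3 were lower and both Hmga genes higher, while Igf2bp1 differed by −0.02 ± 0.158 (adjusted p 0.955). In MGT cells 2 of 5 were called in that comparison, where 17.4% of all tested genes were (8.12% higher and 9.29% lower). Igf2bp2 was lower by −1.23 ± 0.106 (adjusted p 3.47e-09) and Igf2bp3 by −0.54 ± 0.132 (adjusted p 0.00462). Without MGT 3-month replicate 1 Igf2bp3 was lower by −0.43 (adjusted p 0.1). Hmga1 differed by 0.26 ± 0.099 (adjusted p 0.0794) and was called in 3 of the 12 fits with 1 library left out, those without LacZ 3-month replicate 1 (0.25, adjusted p 0.0318), LacZ 3-month replicate 2 (0.26, adjusted p 0.0227) or MGT 18-month replicate 1 (0.36, adjusted p 0.0493).

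Igf2bp1 read 49.81 and 46.45 CPM in neonatal, 11.53 and 14 in 3-month and 10.17 and 9.875 in 18-month MGT cells. Its adult groups stood apart from the neonatal one, 3.78-fold lower at 3 months (−1.92 ± 0.145) and 4.80-fold lower at 18 months (−2.26 ± 0.148, adjusted p 5.55e-12). Igf2bp3 read 47.51 and 49.48 CPM in neonatal, 21.94 and 18.55 in 3-month and 13.87 and 13.94 in 18-month MGT cells. Igf2bp2 read 134.9 and 140.4 CPM, 88.14 and 80.32 CPM, and 34.77 and 37.31 CPM at the same 3 ages. Both genes stepped down at each age without overlap, Igf2bp3 to −1.80 ± 0.125 and Igf2bp2 to −1.93 ± 0.105 at 18 months against neonatal cells. Hmga2 read 308.5 and 281 CPM in neonatal, 202.6 and 187.7 in 3-month and 183.7 and 178.6 in 18-month MGT cells. It was lower at 3 months by −0.59 ± 0.092 and at 18 months by −0.70 ± 0.092 (adjusted p 1.07e-06). The difference of −0.11 ± 0.092 between the 2 adult groups did not pass the test (adjusted p 0.49), and none is read from their lack of overlap.

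Side by side, Hmga2 differed between 3-month and neonatal cells by −4.70 in untreated cultures and by −0.74 in LacZ cells, and Igf2bp1 by −4.82 and −1.89. The neonatal levels of Igf2bp1 were near 46 CPM in both tables, while 3-month cells read 1.394 to 1.869 CPM untreated and 10.56 to 14.33 CPM with LacZ. Hmga2 in 3-month cells read 5.655 to 7.15 CPM untreated and 167.1 to 178.5 CPM with LacZ. The 2 tables were made and scaled separately and their cells differ in the LacZ treatment, so no test was made between them. The marker sums also differed by age here: cardiomyocyte markers summed to 301 to 347.2 CPM in neonatal LacZ cells and 7.59 to 10.8 in older ones, endothelial markers to 382.4 to 420.6 against 23.8 to 43.2, and epicardial markers to 678.2 to 738 against 8.70 to 14.9. Macrophage markers went the other way, with 208.7 to 261.8 CPM in neonatal, 322.7 to 331 in 3-month and 336.1 to 359.6 in 18-month LacZ cells. Up to 5 of 12 cardiomyocyte and 2 of 8 epicardial markers were at 0 in older LacZ cells, and none in neonatal ones. Their part in the result was not tested.

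**Figure D2:**
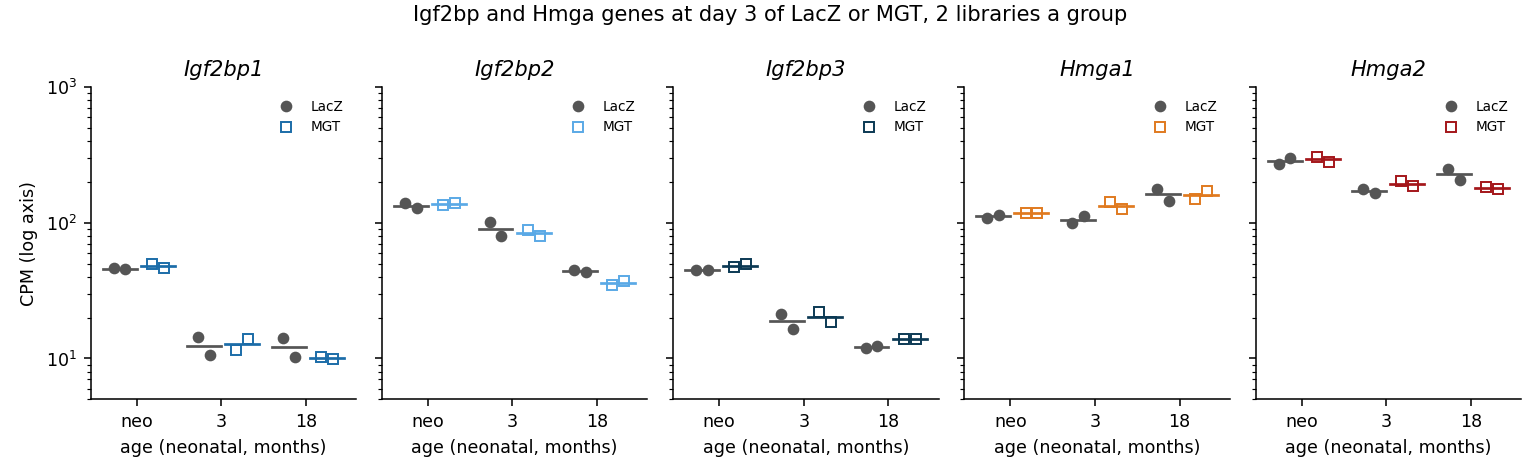
CPM on a log axis of the 5 tested genes at day 3 of LacZ (filled circles) or MGT (open squares) by age; each point is 1 library and each bar the mean of 2. The 3 Igf2bp genes are lower at 3 and 18 months than in neonatal cells under both treatments, Hmga1 is highest at 18 months, and Hmga2 at 18 months is lower with MGT than with LacZ.

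Between MGT and LacZ cells of the same age, 0 or 1 of the 5 tested genes was called. In neonatal cells 0 of 5 tested genes was called by edgeR between MGT and LacZ, where 7.51% of all tested genes were (4.26% higher and 3.24% lower). DESeq2 also called 0, and 0 had an unadjusted p below 0.05; the 5 differences ran from 0.03 to 0.10, and none had an adjusted p below 0.763. At 3 months 1 of 5 was called, with 17.4% of all tested genes called (8.99% higher and 8.39% lower): Hmga1 read 141.4 and 126.9 CPM with MGT and 99.58 and 112.1 with LacZ (0.34 ± 0.100, adjusted p 0.0171). Without LacZ replicate 1 Hmga1 was higher by 0.25 (adjusted p 0.0756) and without MGT replicate 1 by 0.26 (adjusted p 0.24). At 18 months 1 of 5 was called, with 16.6% of all tested genes called (8.52% higher and 8.05% lower): Hmga2 read 183.7 and 178.6 CPM with MGT and 249.9 and 207.4 with LacZ (−0.34 ± 0.092, adjusted p 0.0119). The call was lost without LacZ replicate 1 (−0.19, adjusted p 0.34), MGT replicate 1 (−0.34, adjusted p 0.0558) or MGT replicate 2 (−0.33, adjusted p 0.0885). Igf2bp2 differed by −0.29 ± 0.107 at 18 months (adjusted p 0.0685) and was called without LacZ 3-month replicate 1 (−0.30, adjusted p 0.00635) or 2 (−0.28, adjusted p 0.0116).

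The test of the MGT effect between ages called Hmga2, 1 of 5 tested genes, for 18 against 3 months, where 2.34% of all tested genes were called (1.56% higher and 0.782% lower). The MGT effect on Hmga2 at 18 months minus that at 3 months was −0.51 ± 0.130 (adjusted p 0.034), and 7 of the 12 fits with 1 library left out lost this call, with values from −0.64 to −0.37 over the 12. Those were the fits without LacZ 18-month replicate 1 and without either replicate of neonatal LacZ, 3-month MGT or 18-month MGT. For 18 months against neonatal cells Hmga2 differed by −0.37 ± 0.129 (adjusted p 0.145), and by −0.38 (adjusted p 0.0281) or −0.37 (adjusted p 0.0368) without LacZ 3-month replicate 1 or 2. By edgeR and by DESeq2 0 of 5 was called there, where 2.82% of all tested genes were (2.03% higher and 0.788% lower) and where 2 genes, Igf2bp2 and Hmga2, had an unadjusted p below 0.05. In 3 months against neonatal cells both tools also called 0 of 5, and 0 had an unadjusted p below 0.05, where 3.7% of all tested genes were called (2.28% higher and 1.41% lower). For 18 against 3 months Hmga1 differed by −0.36 ± 0.140 (adjusted p 0.228) and was called without LacZ 3-month replicate 2 (−0.45, adjusted p 0.0467).

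**Figure D3:**
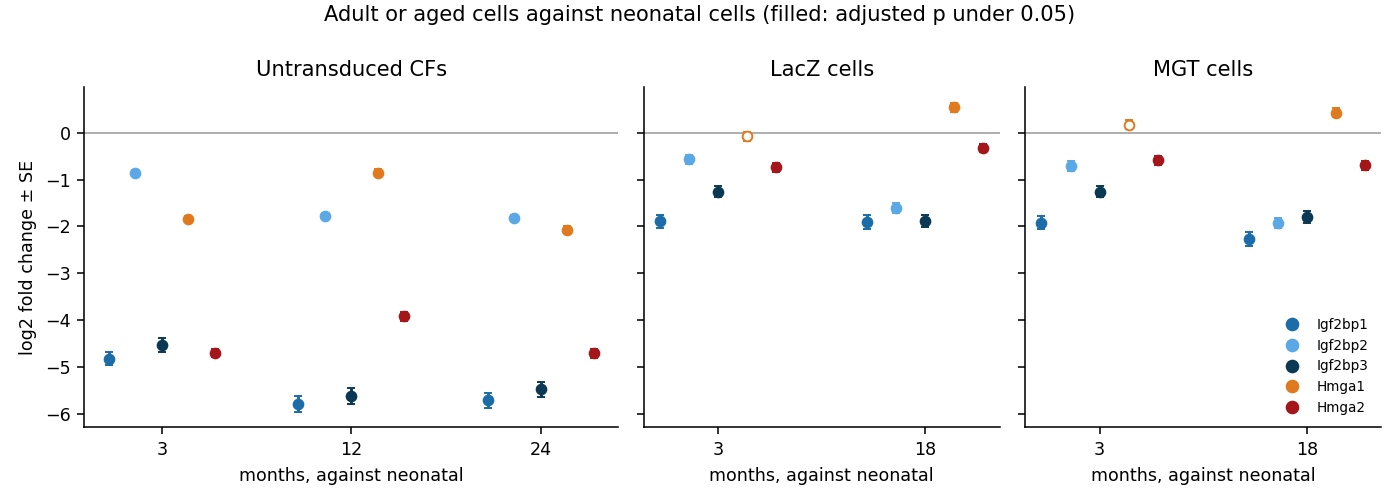
Log2 fold change ± SE of each gene against neonatal cells in untreated fibroblasts (left, 3, 12 and 24 months), LacZ cells (middle) and MGT cells (right, both 3 and 18 months); filled points passed an adjusted p of 0.05. Igf2bp1, Igf2bp3 and Hmga2 lie between −3.92 and −5.79 in untreated cells and between −0.33 and −2.26 in LacZ and MGT cells, and Hmga1 is above 0 at 18 months.

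Overexpression of Nr4a3 in neonatal cells was large and left these genes near their controls. Nr4a3 read 2.491 and 1.855 CPM in OE-Ctrl and 175.4 and 177.8 CPM in OE-Nr4a3 libraries (6.35 ± 0.158). By edgeR 0 of 5 tested genes was called, where 22.7% of the 15029 tested genes were (11.9% higher and 10.8% lower). DESeq2 also called 0, and 0 had an unadjusted p below 0.05. Igf2bp2 read 100.5 and 96.8 CPM in controls and 112.6 and 116.9 with Nr4a3 (0.22 ± 0.099, adjusted p 0.133), and Igf2bp3 25.88 and 23.57 against 29.69 and 28.82 (0.24 ± 0.123, adjusted p 0.172). For both genes the groups did not overlap, but the test was not passed, and no difference is read from the lack of overlap of 2 libraries a group. Igf2bp1 read 18.2 and 15.02 CPM against 18.18 and 20.59 (0.23 ± 0.151), and Hmga2 32.18 and 25.49 against 24.02 and 26.98 (−0.17 ± 0.146), with overlap in both. Hmga1 read 11.07 and 11.01 CPM against 10.47 and 12.35, and differed by 0.05 ± 0.158. Without OE-Ctrl replicate 1, all 3 Igf2bp genes were called higher, by 0.37 for Igf2bp1 (adjusted p 0.0236), 0.25 for Igf2bp2 (adjusted p 0.000415) and 0.32 for Igf2bp3 (adjusted p 0.0184). Without OE-Ctrl replicate 2, Igf2bp2 (0.19, adjusted p 0.0164) and Hmga2 (−0.34, adjusted p 0.0165) were called; these fits have 3 libraries and assume that the lone control varies like the other group. Epicardial markers summed to 980.6 to 1046 CPM in controls and 439.7 to 472.6 with Nr4a3, macrophage markers to 929 to 941.5 against 599.5 to 621, with no marker of either list at 0, and their part was not tested. Xist read 282.3 and 224 CPM in controls and 483.3 and 484.4 CPM with Nr4a3.

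Knockdown of Nr4a3 in MGT cells of 3-month-old mice changed 4 of the 5 tested genes, and the direction split the family. Nr4a3 read 8.838 and 8.175 CPM with shNT and 0.4308 and 0.7439 CPM with shNr4a3 (−3.85 ± 0.269). Hmga1, Hmga2 and Igf2bp3 were lower with shNr4a3, and Igf2bp1 was higher. In this comparison 54.5% of the 18045 tested genes were called, 27.9% higher and 26.7% lower.

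Hmga1 read 173.6 and 165.8 CPM with shNT and 39.2 and 36.59 CPM with shNr4a3. It was 4.48-fold lower (−2.16 ± 0.087, adjusted p 6.41e-10). Hmga2 read 16.38 and 19.99 CPM with shNT and 9.477 and 7.276 with shNr4a3, without overlap, and was 2.17-fold lower (−1.12 ± 0.158, adjusted p 5.16e-05). For both genes every shNr4a3 library was below every shNT library.

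Igf2bp3 read 18.02 and 17.9 CPM with shNT and 10 and 9.81 CPM with shNr4a3, and was 1.81-fold lower (−0.86 ± 0.123, adjusted p 5.96e-05). Igf2bp1 read 2.383 and 2.687 CPM with shNT and 6.893 and 7.997 CPM with shNr4a3, and was 2.93-fold higher (1.55 ± 0.202, adjusted p 2.55e-05). Neither gene's groups overlapped. Igf2bp2 read 46.45 and 52.97 CPM against 59.71 and 56.16, and its difference of 0.22 ± 0.096 did not pass the test (adjusted p 0.0689), but did without shNr4a3 replicate 2 (0.27, adjusted p 0.0341). The 4 calls were kept in every fit with another setting or with 1 library left out. Lin28a and Lin28b had 0 counts in all 4 libraries. Mir99ahg, the host transcript of let-7c among other microRNAs, was looked up after its values were seen: it read 3.848 and 3.219 CPM with shNT and 10.1 and 8.531 CPM with shNr4a3 (1.4 ± 0.187, adjusted p 3.22e-05). With overexpression Mir99ahg differed by −0.08 ± 0.153 (adjusted p 0.745), and in untreated cells it read 20.22 and 18.25 CPM in neonatal, 19.88 and 19.46 in 3-month and 16.89 and 20.86 in 24-month libraries, with no call. The untreated 12-month libraries read lower than the neonatal and 3-month ones, at 15.13 and 17.96 CPM. Over all ages Mir99ahg read 8.583 to 11.19 CPM in LacZ and 6.116 to 9.476 CPM in MGT cells. In the same libraries cardiomyocyte markers summed to 10720 to 12430 CPM with shNT and 6687 to 7557 with shNr4a3, pericyte and smooth muscle markers to 177.9 to 225.1 against 917.1 to 964.8, and fibroblast markers to 8358 to 8751 against 6816 to 6901. Of these 3 lists no marker was at 0. Their part in the result was not tested.

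**Figure D4:**
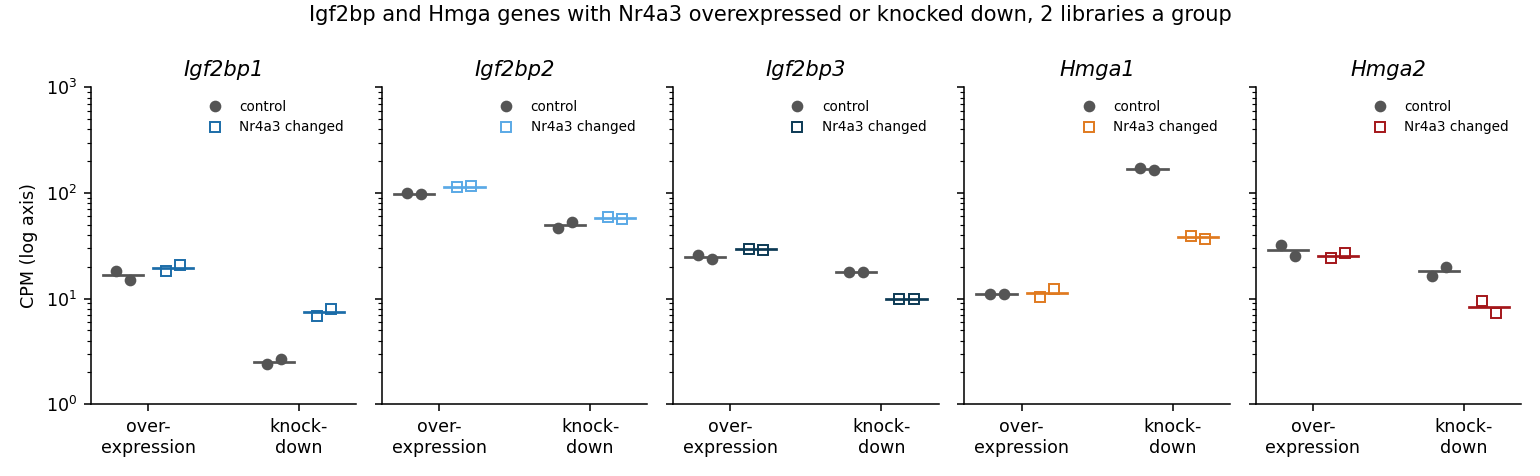
CPM on a log axis of the 5 tested genes with Nr4a3 overexpressed in neonatal fibroblasts (left pair) or knocked down in 3-month MGT cells (right pair); filled circles are control libraries, open squares the libraries with Nr4a3 changed, bars the mean of 2. Overexpression pairs lie close together, while with knockdown Hmga1 goes from 165.8 CPM or more to 39.2 or less and Igf2bp1 from 2.687 or less to 6.893 or more.

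Genes of the surrounding pathways were counted from lists drawn up by function, with earlier results of these data known. Of 21 let-7 targets other than the 7 genes, such as Igf1r, Ccnd1, Ccnd2 and Nras, 13, 13 and 12 were lower and 2, 4 and 6 higher in untreated cells of 3, 12 and 24 months than in neonatal ones, with medians of −0.31, −0.29 and −0.32 against 0.01, 0.03 and −0.01 over all tested genes. Of all tested genes 24.4%, 25.5% and 26.6% were lower and 28%, 29.7% and 27.9% higher at these ages. Igf1r, the receptor for insulin-like growth factors, was lower by −1.38 ± 0.042 at 3 and −1.54 ± 0.042 at 24 months, and Ccnd1, cyclin D1, by −1.85 ± 0.078 and −1.57 ± 0.077. In LacZ cells of 18 months 7 of the let-7 targets were lower and 5 higher (18.3% and 16.7% over all tested genes), with Ccnd1 higher by 0.46 ± 0.096. With Nr4a3 knockdown 13 of 20 tested let-7 targets were higher and 3 lower (median 0.43 against 0.01, with 27.9% of all tested genes higher and 26.7% lower), among them Igf1r at 0.77 ± 0.102 and Ccnd2 at 0.47 ± 0.093. With Nr4a3 overexpression 4 of 20 were higher and 2 lower, with 11.9% and 10.8% of all tested genes, and 1 to 10 were called when a library was left out.

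Of the 14 genes of let-7 processing, which include Drosha, Xpo5 and Ago2, 3 were higher and 3 lower at 3 months, and 3 higher and 5 lower at 24 months in untreated cells. Of all tested genes 52.5% were called at 3 and 54.5% at 24 months, near the list's 6 and 8 of 14. Ago2, the slicing Argonaute, was lower by −0.24 ± 0.043 at 3 and −0.23 ± 0.043 at 24 months. Without 24-month replicate 1, 5 rather than 8 of the let-7 processing genes were called at 24 months. With Nr4a3 overexpression, where 11.9% of all tested genes were higher, 5 of 13 were higher, Ago2 by 0.81 ± 0.166 (adjusted p 0.0119). With knockdown, where 54.5% of all tested genes were called, 2 of 13 were higher and 4 lower, Ago2 by −0.59 ± 0.103 (adjusted p 0.00034), and 3 rather than 6 of the list were called without shNT replicate 2. The overexpression count ranged from 2 to 12 when a library was left out.

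Of the 10 Igf2bp-bound transcripts, 6 were lower and 2 higher at each of the 3 adult ages in untreated cells, where 24.4% to 26.6% of all tested genes were lower. H19, a fetal non-coding RNA and known Igf2bp ligand, was lower by −6.48 ± 0.093 at 3 and −7.20 ± 0.101 at 24 months, and Igf2, the fetal growth factor the family is named for, by −6.26 ± 0.283 and −6.07 ± 0.278. Lamb2, a laminin chain, was higher by 1.16 ± 0.048 at 3 months, and Actb, the classic zipcode mRNA, differed by −0.02 ± 0.037 (adjusted p 0.687). With Nr4a3 knockdown 5 of the 10 were higher and 3 lower, where 27.9% and 26.7% of all tested genes were. Igf2 differed by −3.09 ± 0.312 (adjusted p 2.54e-06), Cd44 by −1.15 ± 0.084 and H19 by 1.00 ± 0.312 (adjusted p 0.0253).

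The fetal growth list of 13 mostly imprinted genes was mostly lower in adult cells: 11, 12 and 12 were lower at 3, 12 and 24 months, where 24.4%, 25.5% and 26.6% of all tested genes were, with medians of −3.52, −3.74 and −3.49. Plagl1, a transcription factor, was lower by −4.12 ± 0.065 at 3 months and Grb10, an inhibitor of growth signalling, by −2.12 ± 0.047, whereas Peg10 was higher by 2.84 ± 0.061. In LacZ cells 9 of the fetal growth genes were lower and 3 higher at 3 months, where 15.8% and 15.1% of all tested genes were. At 18 months 11 were lower and 2 higher, where 18.3% and 16.7% of all tested genes were. With knockdown 8 of 12 were higher and 2 lower (median 0.90), where 27.9% and 26.7% of all tested genes were. Cdkn1c, a cyclin-dependent kinase inhibitor, was higher by 4.88 ± 0.164. With overexpression 2 of 12 were higher and 5 lower, where 11.9% and 10.8% of all tested genes were. Fewer were called with either OE-Nr4a3 library left out.

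Of the 12 proliferation genes 11 were higher at 3 months in untreated cells, where 28% of all tested genes were higher. At 12 months 2 were higher and 7 lower, and at 24 months 1 was higher and 8 lower, where 25.5% and 26.6% of all tested genes were lower. Without neonatal replicate 1, 7 of the proliferation list were called at 3 months. Mki67 was higher by 0.25 ± 0.057 at 3 and lower by −0.67 ± 0.059 at 24 months. In LacZ cells of 18 months 7 of the proliferation genes were higher (16.7% of all tested genes), and fewer without neonatal LacZ replicate 1. With Nr4a3 knockdown all 12 were lower (median −0.81, with 26.7% of all tested genes lower), Top2a by −1.16 ± 0.092. With overexpression 6 of 12 were lower by edgeR, where 10.8% of all tested genes were, and 2 by DESeq2. Fewer than 6 were called by edgeR with either OE-Nr4a3 library left out. Of the 6 cell cycle inhibitors 3 were higher and 1 lower at 3 months and likewise with knockdown. Of all tested genes 52.5% were called at 3 months and 54.5% with knockdown. Fewer inhibitors were called with knockdown when either shNT library was left out.

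Of the 7 other high-mobility-group genes 4 were higher and 2 lower at 3 months. At 12 and at 24 months 1 was higher and 4 lower. Of all tested genes 52.5%, 55.2% and 54.5% were called at these 3 ages. Hmgn1 was lower by −0.52 ± 0.041 and −0.74 ± 0.042 at 3 and 24 months. With Nr4a3 knockdown, where 54.5% of all tested genes were called, 3 were higher, Hmgn5 by 2.75 ± 0.089, and 1 lower. With overexpression, where 10.8% of all tested genes were lower, 3 were lower, and fewer with either OE-Nr4a3 library left out. Of the 16 m6A writers, erasers and readers 2 were higher and 2 lower at 3 months, 2 higher and 3 lower at 24 months, with medians of −0.04 and −0.06, against 52.5% and 54.5% of all tested genes called. At 3 months 2 rather than 4 of them were called by DESeq2, without 3-month replicate 1 or without neonatal replicate 1. With knockdown 3 were higher and 7 lower, Fmr1 by −0.87 ± 0.083, against 54.5% of all tested genes called.

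Among 11269 candidate genes, the pattern of Igf2bp1 over the 20 libraries of the 2 age tables was closest to that of Grb10, with Pearson correlations of log2 CPM of 0.994 over the 8 untreated and 0.982 over the 12 LacZ and MGT libraries. Igf2bp1 was next closest to Cd109, a membrane glycoprotein. Igf2bp3 was closest to Adgrl2, an adhesion receptor (0.990 and 0.987), and to Cdh5, an endothelial cadherin on the endothelial marker list (0.994 and 0.975). Igf2bp2 was closest to Slc38a4, an amino acid transporter (0.971 and 0.978), and Col11a1, a collagen chain. Hmga2 was closest to Cracd (0.992 and 0.921) and Tgfa. Within the family Igf2bp1 and Igf2bp3 had 0.99 and 0.95, while Hmga1 and Igf2bp2 had 0.63 in untreated and −0.82 in LacZ and MGT cells. All these values are set largely by the steps between the age groups, which the libraries of a table share.

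Single MGT cells gave the levels cell by cell for neonatal and 24-month mice, with 1 library each and hence no test. Of 4816 neonatal and 6796 aged barcodes 3828 and 5773 were kept, with medians of 13960 and 20771 UMIs, and 11 barcodes occurred in both libraries. No doublets were removed. Over all kept cells Igf2bp1 read 14.4 CPM of summed UMIs in neonatal cells (95% Poisson interval 13.74 to 15.09) and 0.263 at 24 months (0.188 to 0.359). Igf2bp2 read 42.9 against 12.66 CPM, Igf2bp3 27.24 against 6.144, Hmga2 38.1 against 4.465 and Hmga1 12.43 (11.82 to 13.07) against 9.035 (8.563 to 9.526). The neonatal to 24-month ratios were thus 54.7 for Igf2bp1, 8.53 for Hmga2, 4.43 for Igf2bp3, 3.39 for Igf2bp2 and 1.38 for Hmga1. Intervals cover counting error only. Lin28a had 0 UMIs in both libraries, and Lin28b had 1 in the neonatal and 0 in the aged one.

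The 2 libraries differed in cell makeup. Cardiomyocyte-like cells were 62.6% of the neonatal and 1.44% of the aged cells, fibroblast-like cells 24.97% and 50.1%, macrophage-like cells 5.23% and 14%, and unnamed clusters, mostly of few UMIs, 5.33% and 34.0%. The cardiomyocyte-like share depends on the clustering. Its cluster 5, 1547 neonatal and 78 aged cells, had a median of 2127 UMIs and 4 cardiomyocyte markers in at least 25% of cells. At resolution 1 the cardiomyocyte-like clusters held 827 and 712 neonatal and 5 and 14 aged cells. An unnamed cluster there, with a median of 2288 UMIs, held 858 neonatal and 59 aged cells. Fibroblast-like neonatal cells were mostly of cluster 0, led by Crabp1, and aged ones of cluster 3, led in part by Ptprn. A further aged fibroblast-like cluster of 127 cells was led by the interferon-response genes Cxcl9 and Gbp4. Since 1 library stands for each age, age and library cannot be told apart.

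Within fibroblast-like cells, 956 neonatal and 2895 aged, the order was kept. Igf2bp1 read 16.75 CPM (15.78 to 17.76) against 0.297, a ratio of 56.4. Hmga2 read 54.23 against 4.05 CPM, a ratio of 13.4, and Igf2bp3 27.55 against 5.999, a ratio of 4.59. Igf2bp2 read 36.79 against 12.91 CPM, a ratio of 2.85, and Hmga1 12.65 against 7.523, a ratio of 1.68. Tnnt2, a sarcomere gene, had a UMI in 98.2% of the neonatal and 19.1% of the aged fibroblast-like cells, with 1401 and 67.7 CPM. The fibroblast-like cells were taken without the cells named cardiomyocyte-like, endothelial-like or macrophage-like, but no epicardial-like cluster was separated at this clustering resolution. At resolution 1, 88 neonatal and 0 aged cells formed one, and in the fibroblast-like cells without it the 24-month to neonatal ratio was 0.0165 for Igf2bp1, 0.352 for Igf2bp2, 0.217 for Igf2bp3, 0.595 for Hmga1 and 0.0718 for Hmga2.

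Expression was not limited to fibroblast-like cells. Neonatal cardiomyocyte-like cells, 2397 in number, read 54.87 CPM for Igf2bp2 (52.77 to 57.03), above fibroblast-like cells, and 17.71 CPM for Hmga2 (16.53 to 18.95), below them. Neonatal macrophage-like cells read 39.16 CPM for Igf2bp3 and 22.69 for Hmga1 (19.03 to 26.86), with 3.36 CPM for Igf2bp1. The 71 neonatal endothelial-like cells read 20.47 CPM for Igf2bp1 (14.87 to 27.48) and 10.24 for Igf2bp2. Aged macrophage-like cells read 0.104 CPM for Igf2bp1, 5.852 for Igf2bp3 and 17.97 for Hmga1. Tnnt2 had a UMI in 74.5% of neonatal macrophage-like and 88.7% of neonatal endothelial-like cells; whether free RNA or doublets gave these was not tested. With each cell thinned to 2000 UMIs, Igf2bp3 read 13.59 CPM in neonatal macrophage-like and 26.62 CPM in neonatal fibroblast-like cells, the opposite order of the summed counts, so no order of Igf2bp3 between these types is read.

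A cycling fibroblast-like cluster, led by Ube2c, Hmmr and Cenpf, held 113 neonatal and 166 aged cells. In it Hmga2 read 99.3 CPM (91.73 to 107.3) in neonatal and 7.654 (5.733 to 10.01) in aged cells, and Igf2bp1 29.93 (25.85 to 34.48) against 0.578 (0.157 to 1.48). In the largest neonatal fibroblast-like cluster Hmga2 read 49.8 CPM and Igf2bp1 15.47, so both were higher in the cycling neonatal cells. Aged cycling cells stayed below both neonatal clusters for each of the 2 genes. Hmga1 read 15.28 CPM (12.4 to 18.62) in cycling and 12.4 in the largest cluster of neonatal cells.

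The share of cells with at least 1 UMI of Igf2bp1 was 24.1% in neonatal and 0.676% in aged kept cells. After each cell was thinned to 2000 UMIs, which left out 826 neonatal and 1225 aged shallower cells, it was 1.83% and 0.0220%, the latter 1 cell of 4548. In fibroblast-like cells alone the unthinned shares were 53.5% and 1.24%, against 6.50% and 0.248% in macrophage-like cells of the same libraries, the median depths being 60330 and 40810 UMIs in fibroblast-like and 27280 and 23360 in macrophage-like cells. Thinned shares of Hmga2 were 4.10% and 0.726%, of Igf2bp3 4.36% and 1.12%, of Igf2bp2 7.33% and 2.24%, and of Hmga1 2.065% and 1.803%. The intervals of the last pair overlap (1.587 to 2.64% and 1.436 to 2.233%). These intervals cover counting error over the cells of 1 library an age, so whether Hmga1 differs with age was not tested.

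**Figure D5:**
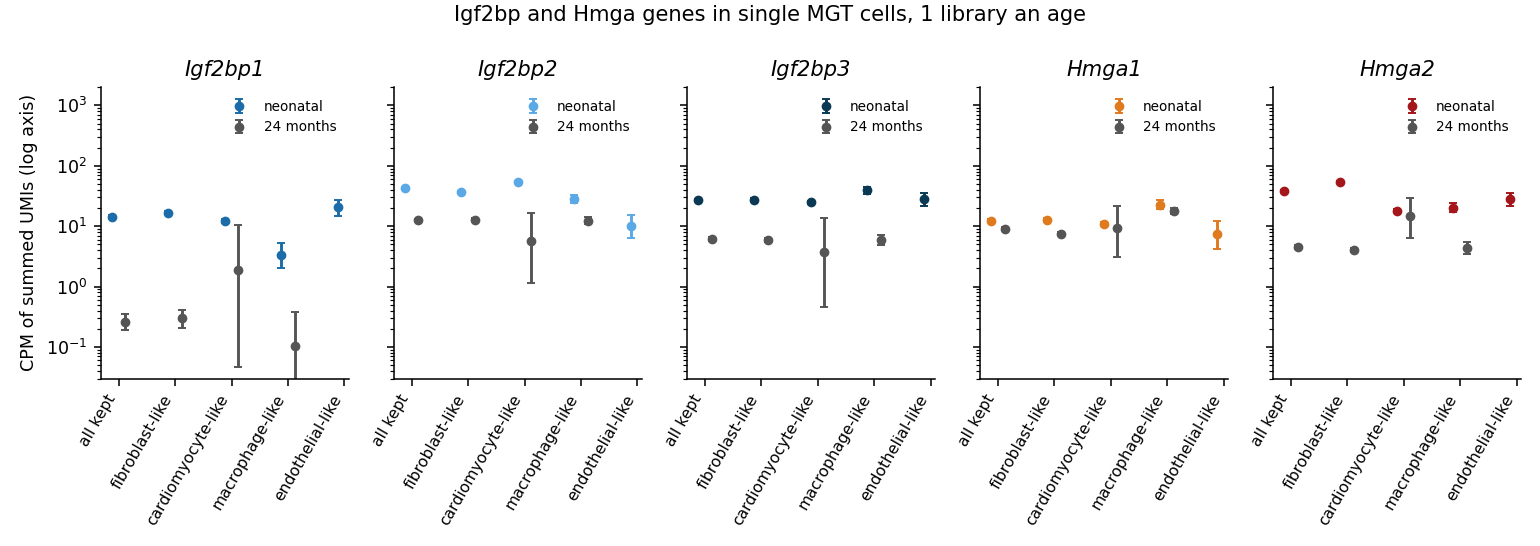
CPM of summed UMIs on a log axis, with exact 95% Poisson intervals, for each gene in all kept cells and in 4 named classes; coloured points are the neonatal and grey points the 24-month library, and a class with fewer than 30 cells in a library is not drawn. Igf2bp1 differs most between the libraries, from 14.4 to 0.263 CPM over all kept cells, and Hmga1 least, from 12.43 to 9.035.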

How the data were processed

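Bulk RNA was rRNA-depleted and sequenced as paired ends with a stranded kit, per the labels' protocols. The deposited bulk tables hold whole-number counts per gene; Trimmomatic 0.36, Subread 1.5.1, featureCounts, SAMtools and mm10 are named in the submitters' processing notes, and whether counting used strand is not given in the sources used here. The deposited single-cell matrices hold UMI counts per gene and barcode. Columns were matched to samples by name: some headers differ from the labels (13 against 12 months, 15 against 18 months, GFP against OE-Ctrl), the label was used, and 4 columns that match no sample were left out.

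Each table was fitted alone in edgeR 4.0.16 (R 4.3.3; filterByExpr, TMM, 1 coefficient per group, robust quasi-likelihood), over 20 comparisons; the fits were tested on simulated data. Alternatives were RLE factors, no filter, DESeq2 1.42.0, a replicate block, and each library left out. Barcodes with under 500 genes or over 20% mitochondrial UMIs were dropped and the others clustered in scanpy 1.11.5 (2000 variable genes, 50 components, 15 neighbours, Leiden resolution 0.5, 14 clusters). Clusters were named from fixed markers; as no cluster met the planned fold for fibroblast markers, a rule chosen after seeing the data named fibroblast-like clusters from detection of 75% of those markers in 25% of cells. The 7 genes, the lists and the tests were chosen with earlier results of these data known. Named were the 7 genes, up to 4 genes of each pathway list with the highest average level plus Igf2 and H19, marker sums, and up to 2 genes most like each of the 5 tested genes. Some items, and 1 further setting that needs them, are not reported here; reads that Hmga1 could share with near-identical sequences were not resolved. Coordinates and sequences are from GRCm38 annotation; coordinates in the files were not used.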

Additional observations from a re-analysis of the deposited data

Results flagged for a closer look

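The MGT effect on Hmga2 differed between ages by the interaction test: the effect at 18 months minus that at 3 months was −0.51 (log2), with an adjusted p of 0.034 by edgeR's quasi-likelihood test. With MGT, Hmga2 was lower at 18 months (−0.34 ± 0.092, adjusted p 0.0119), and at 3 months it differed by 0.18 ± 0.092 without passing the test (adjusted p 0.215). Leaving out 1 library at a time lost the call of the difference in 7 of 12 fits.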

How the results depend on the processing

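Of 400 values of single genes under RLE factors, no filter, DESeq2 or the replicate block, 396 kept their direction and side of the threshold. Hmga1 at 24 against 3 months of untreated cells lost its call with RLE factors (−0.224, adjusted p 0.0513) and DESeq2 (−0.225, adjusted p 0.15), and Hmga2 there turned to 0.001 with DESeq2. The cause was not tested. Replicate numbers did not pair the libraries, whose deviations correlated by −0.08 to 0.07; the replicate block gave Igf2bp2 in the knockdown 0.223 (adjusted p 0.0386) and changed no other call.

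With 1 library left out, 926 of 1000 such values kept direction and side of the threshold, and the number of genes called among the 5 ranged from 3 to 5 (12 against 3 months untreated), 1 to 4 (24 against 3 months untreated), 0 to 1 (MGT against LacZ at 3 months), 0 to 2 (at 18 months), 0 to 1 (MGT effect, 18 months minus neonatal), 0 to 2 (18 minus 3 months), 1 to 3 (18 against 3 months of MGT) and 0 to 3 (overexpression). Values that changed sign were none of them called in the full fit. In untreated cells Hmga2 at 24 against 3 months ranged from −0.165 to 0.174 and Igf2bp3 at 24 against 12 from −0.246 to 0.604. For MGT against LacZ the ranges were, in neonatal cells, −0.008 to 0.1 (Igf2bp2) and −0.036 to 0.116 (Hmga2), at 3 months −0.163 to 0.26 (Igf2bp1), −0.256 to 0.077 (Igf2bp2) and −0.067 to 0.297 (Igf2bp3), and at 18 months −0.153 to 0.146 (Hmga1). For the MGT effect they were −0.238 to 0.194 (Igf2bp1), −0.306 to 0.035 (Igf2bp2) and −0.176 to 0.196 (Igf2bp3) for 3 months minus neonatal, −0.252 to 0.046 (Hmga1) for 18 months minus neonatal and −0.12 to 0.266 (Igf2bp3) for 18 minus 3 months. In LacZ cells Hmga1 at 3 months against neonatal ranged from −0.173 to 0.009 and Igf2bp1 at 18 against 3 months from −0.26 to 0.208, and with overexpression Hmga1 ranged from −0.068 to 0.172 and Hmga2 from −0.336 to 0.004.

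All genes called with overexpression ranged from 1197 to 7704 around 3410. In single cells all 5 genes were lower at 24 months over the kept cells, all deposited barcodes, fibroblast-like cells at either resolution and thinned kept cells, but in thinned cardiomyocyte-like cells Hmga1 read 10.64 against 7.216 and Hmga2 21.28 against 10.82 CPM, from 1 and 2 of 47 aged cells with a UMI; the 24-month to neonatal ratio of Hmga1 moved from 0.727 to 0.595 in fibroblast-like cells and 0.87 after thinning, and that of Hmga2 from 0.117 to 0.0747 and 0.165. Pairs of libraries limit every bulk test, and Lin28a and Lin28b lie at or under what these depths show.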
